A study of Mus musculus with 32 samples.

Results

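The proteasome genes of cultured mouse islets were examined as 1 set, made of the rows whose symbol starts with Psma, Psmb, Psmc, Psmd or Psme followed by a number. The deposited table has 36595 rows, of which 45 matched, and 43 of these had at least 10 counts in at least 8 libraries. These 43 rows stand for 42 genes, because Psmd10 was listed under 2 identifiers with the same counts in every library, so that its reads may have been split between them. Psma8, an alpha subunit known from testis, and a second Psme2 row with no counts were left out by the count minimum. The 42 genes held 5 that are known to be induced by interferon (Psmb8, Psmb9, Psmb10, Psme1 and Psme2) and 37 others. No measured value chose them beyond that count minimum. All 42 also passed the filter on low counts used for testing.

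Donors of the islets were 10 weeks old, of both sexes, on a C57BL/6NHsd background. In hIAPP animals the gene for human islet amyloid polypeptide stood in place of mouse Iapp after homologous recombination, and mIAPP animals were wild-type littermates. After a night of recovery at 11.1 mM glucose, islets were cultured for 48 h, which gave 4 groups of 8 libraries: hIAPP and mIAPP with 16.7 mM glucose, then hIAPP and mIAPP with 11.1 mM. Each of 8 experiment sets supplied 1 library per group, and the number of animals behind a set is not given in the sources used here. The study's stated subject is islet amyloid, which human but not mouse IAPP forms.

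The proteasome is the protease that degrades proteins tagged with ubiquitin. Its 20S core is a barrel of alpha and beta rings, and the beta subunits encoded by Psmb6, Psmb7 and Psmb5 carry the caspase-like, trypsin-like and chymotrypsin-like sites. In cells exposed to interferon, Psmb9, Psmb10 and Psmb8 take the places of these 3 subunits in newly built cores, which gives the immunoproteasome, known for producing peptides for MHC class I molecules. The 19S cap, made of a base with ATPases and a lid, binds ubiquitin chains and unfolds substrates. Other caps are the 11S activator of Psme1 and Psme2, the nuclear Psme3 ring and Psme4. Insulin-secreting beta cells make large amounts of secretory protein, and proteasomes clear the misfolded part of it.

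The 32 libraries held 16.1 to 43.7 M counts. Insulin transcripts marked the tissue. With 16.7 mM glucose Ins2 averaged 113000 ± 14200 CPM for hIAPP and 136000 ± 15700 CPM for mIAPP, and with 11.1 mM it averaged 142000 ± 16400 CPM for hIAPP and 150000 ± 44300 CPM for mIAPP (CPM, counts scaled to library size with TMM factors, SD, n = 8 each). The share of mitochondrially encoded counts differed between groups, with medians under 16.7 mM glucose of 3.5% for hIAPP and 7.29% for mIAPP, and under 11.1 mM of 18.1% for hIAPP and 20.4% for mIAPP. It reached 37% in the mIAPP library of set 7 at 16.7 mM. The levels of 14 leukocyte marker genes, such as Ptprc, Cd74 and Csf1r, were summed. Under 16.7 mM glucose the sum ranged over 63.1 to 173 CPM for hIAPP and 86.5 to 213 CPM for mIAPP. Under 11.1 mM it ranged over 212 to 418 CPM for hIAPP and 184 to 373 CPM for mIAPP. The list held 15 markers, but Cd3e was too low to test and is not in the sum. None of the 14 was at 0 in all libraries of a group. In whole islets, a loss of cells of one type and less RNA per cell cannot be told apart.

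Per length of transcript, the inducible catalytic genes Psmb8 and Psmb9 lay below all 31 constitutive core and cap genes, and Psmb10 lay below them with 16.7 mM glucose only. In hIAPP islets at 16.7 mM, 31 core and cap genes without the inducible and thymic ones had a median level of 56 CPM per kilobase, between 25 for Psmc6, a base ATPase, and 130 for Psmb4, a structural beta subunit. The median was 55.2 CPM per kilobase for mIAPP with 16.7 mM, and with 11.1 mM it was 49 for hIAPP and 47.2 for mIAPP. With 16.7 mM glucose, Psmb9 stood at 3.55 CPM per kilobase for hIAPP and 3.32 for mIAPP, and with 11.1 mM at 6.69 for hIAPP and 6.76 for mIAPP. Psmb8 stood at 7.39 CPM per kilobase for hIAPP and 6.67 for mIAPP with 16.7 mM, and at 12.2 for hIAPP and 12.1 for mIAPP with 11.1 mM. Psmb10 stood at 13.8 CPM per kilobase for hIAPP and 13.1 for mIAPP with 16.7 mM, and with 11.1 mM at 20.9 for hIAPP and 21.5 for mIAPP, where Psmc6, the lowest core or cap gene, was at 19.7 for hIAPP and 17.4 for mIAPP. Of the 11S genes with 16.7 mM, Psme2 had 71.3 CPM per kilobase for hIAPP and 66.3 for mIAPP, above the median of the core and cap genes, and Psme1 had 32.8 for hIAPP and 35.6 for mIAPP, below it. Psme2 has a retrogene copy, Psme2b, so its level is uncertain. Psmb11, the catalytic subunit known from thymic cortex, had the lowest level per kilobase of these, 0.128 CPM for hIAPP and 0.297 for mIAPP with 16.7 mM.

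Proteasome genes are scattered over the genome, but the inducible ones lie partly in neighbouring pairs. On GRCm38, Psmb9 (chr17:34181987-34187764, minus strand) and Psmb8 (chr17:34197721-34201454, plus strand) lie in the major histocompatibility complex, and Psmb9 overlaps Tap1, the peptide transporter gene on the other strand. Psme1 (chr14:55578123-55581529, plus strand) and Psme2 (chr14:55587441-55591113, minus strand) lie close to each other as well. Psmb10 is alone on chromosome 8 (chr8:105935735-105938444, minus strand) and overlaps an antisense transcript, Gm16156. The deposited counts are not stated to be strand-specific, so reads from such overlaps cannot be told apart.

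Promoter windows from RefSeq (GRCm38.p6, 250 bases before the start and 50 after) were at hand for 36 of the genes and were taken at the RefSeq start nearest to that of the principal GENCODE transcript. These starts need not coincide, and the window of Psmb8 begins inside the GENCODE gene. The windows were searched on both strands for 3 short motifs, and no 2 matches in a window lay on the same bases. The core of the antioxidant response element (TGACNNNGC), the kind of site that the proteasome regulators NFE2L1 and NFE2L2 bind, was in 6 of 31 windows of the other genes (Psmb5, Psmb6, Psmc6, Psmd12, Psmd9 and Psme4), in 0 of 5 windows of the inducible genes and in 13.3% of 16519 windows of all genes. The core of the interferon-stimulated response element (GAAA, any 2 bases, GAAA) was in 1 of 5 inducible windows, that of Psme1, in 3 of 31 others and in 3.44% of all windows. The gamma-activated site core (TTCNNNGAA) was in 1 of 5 inducible windows, that of Psmb8, in 1 of 31 others and in 7.75% of all windows. A match is only a run of letters and no evidence of binding. The 250 bases before the start are printed for 4 genes, 5′ to 3′ on the gene's strand with each match in capitals, because their transcripts responded differently to glucose. Psmb5 (chr14:54617996-54618245, minus strand) and Psmd12 (chr11:107479278-107479527, plus strand) hold the antioxidant core and rose. Psmb6 (chr11:70525107-70525356, plus strand) holds it too and did not pass the test. Psmb8 (chr17:34197945-34198194, plus strand) holds the gamma-activated core and fell. Among genes not printed, Psme4 holds the antioxidant core and rose, while Psmd9 holds it and fell in both genotypes. Psmd2 holds the gamma-activated core just after its start and rose in both. Whether motif and direction go together was not tested. In Psmd12 the match is on the opposite strand.
Psmb5: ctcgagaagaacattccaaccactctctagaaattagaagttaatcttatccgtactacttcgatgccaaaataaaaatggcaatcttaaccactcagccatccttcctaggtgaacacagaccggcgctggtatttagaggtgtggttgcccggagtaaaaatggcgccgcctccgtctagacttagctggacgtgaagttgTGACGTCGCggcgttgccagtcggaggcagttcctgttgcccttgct
Psmb6: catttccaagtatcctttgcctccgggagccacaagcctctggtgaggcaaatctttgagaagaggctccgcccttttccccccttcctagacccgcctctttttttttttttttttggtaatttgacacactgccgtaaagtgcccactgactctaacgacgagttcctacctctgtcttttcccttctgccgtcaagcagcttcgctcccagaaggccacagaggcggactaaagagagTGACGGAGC
Psmd12: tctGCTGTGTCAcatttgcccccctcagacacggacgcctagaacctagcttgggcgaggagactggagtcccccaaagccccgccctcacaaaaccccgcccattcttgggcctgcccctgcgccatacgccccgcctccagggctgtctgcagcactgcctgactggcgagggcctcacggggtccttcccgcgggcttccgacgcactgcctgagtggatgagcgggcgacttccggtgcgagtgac
Psmb8: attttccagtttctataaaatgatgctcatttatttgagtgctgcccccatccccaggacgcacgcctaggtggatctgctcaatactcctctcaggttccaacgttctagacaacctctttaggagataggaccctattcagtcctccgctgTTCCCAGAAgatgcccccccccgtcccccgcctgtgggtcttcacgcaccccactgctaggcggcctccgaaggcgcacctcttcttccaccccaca

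Proteasome genes moved in opposite directions between the glucose levels. In hIAPP islets at 16.7 against 11.1 mM, 24 of 42 genes were higher and 8 were lower by edgeR's quasi-likelihood test with the experiment set as a block (adjusted p under 0.05), against 32.2% of all 16428 genes tested that were higher and 33.3% that were lower. In mIAPP islets 23 were higher and 6 lower, against 24.9% and 22.7% of all genes. The 24 and the 23 held none of the inducible subset, of which 4 fell in hIAPP islets and all 5 fell in mIAPP islets. The median log2 fold change was -0.68 in hIAPP and -0.74 in mIAPP islets over the inducible subset, and 0.27 in hIAPP and 0.31 in mIAPP islets over the other 37. Over all genes it was -0.02 in hIAPP and -0.03 in mIAPP islets. Of the 42 genes, 22 were higher in both genotypes, 5 were lower in both and 8 were called in neither. The 2 glucose comparisons use different libraries from the same sets.

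**Figure D1:**
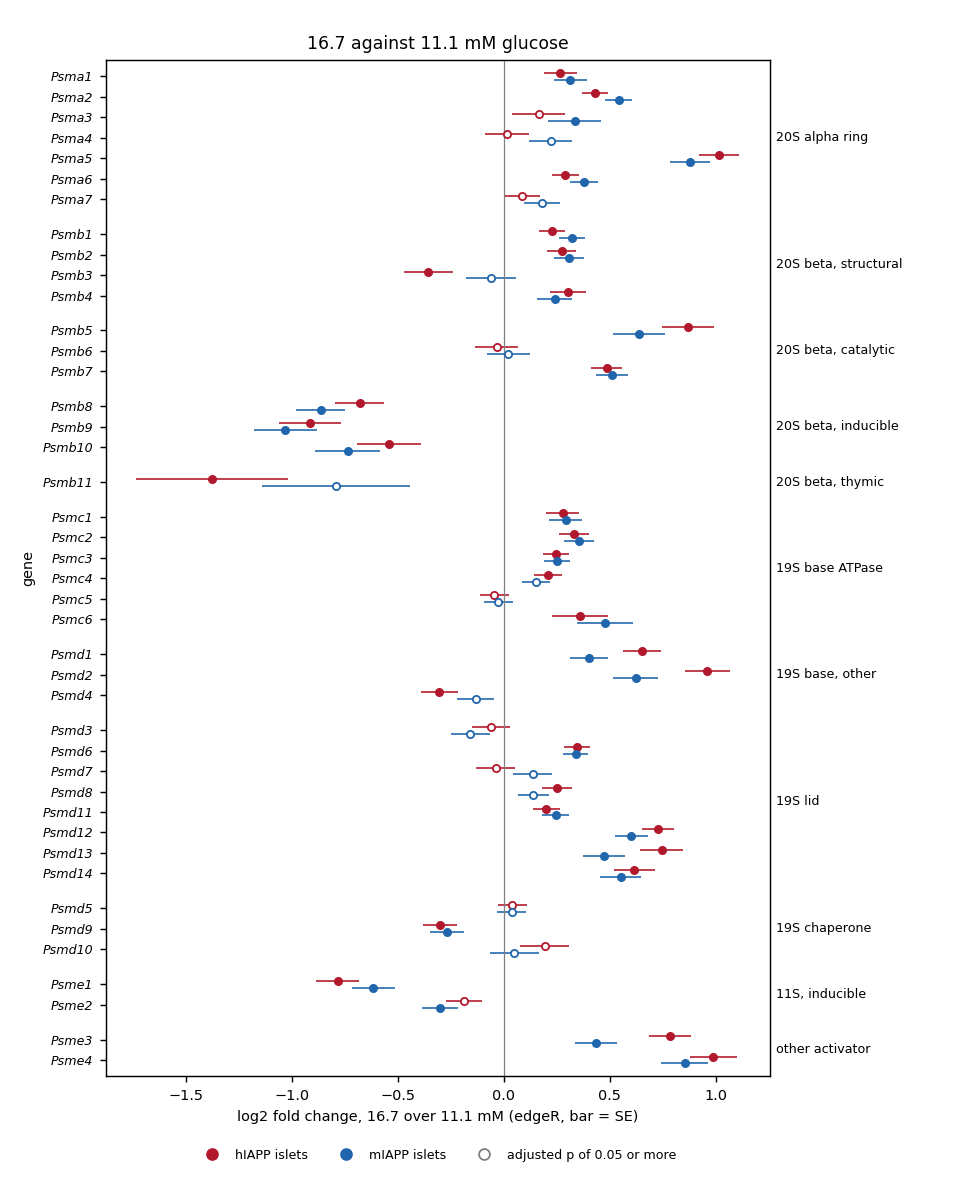
Log2 fold change of the 42 proteasome genes at 16.7 over 11.1 mM glucose in hIAPP (red) and mIAPP islets (blue), grouped by role; bars are standard errors of the edgeR fit and open points did not pass an adjusted p of 0.05. Psmb8, Psmb9, Psmb10 and Psme1 lie left of 0 in both genotypes, Psmb5 and Psmb7 lie right of it, and Psmb6 lies on it.

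Of the alpha ring, 4 of 7 genes rose in hIAPP and 5 of 7 in mIAPP islets. Psma5 moved most. Its lowest, median and highest levels were 64.7, 73.4 and 77.2 CPM in hIAPP islets at 16.7 mM, against 22.4, 35.2 and 49.3 CPM in hIAPP islets at 11.1 mM. Every library at the higher glucose lay above every one at the lower. The log2 fold change was 1.02 ± 0.10 (SE, edgeR adjusted p = 2.2e-09). In mIAPP islets Psma5 ranged over 31 to 68.5 CPM at 16.7 mM and 22.8 to 42.6 CPM at 11.1 mM, and the low end at 16.7 mM, the library of set 7, overlapped the other group (log2 fold change 0.88 ± 0.10, adjusted p = 6.53e-08). Psma2 rose by 0.43 ± 0.06 in hIAPP and 0.54 ± 0.06 in mIAPP islets, and its 2 glucose groups did not overlap in either genotype. Psma1 and Psma6 rose in both genotypes by log2 fold changes of 0.27 to 0.38. Psma7 and Psma4 passed the test in neither, at 0.09 and 0.01 in hIAPP and 0.18 and 0.22 in mIAPP islets. Psma3 passed in mIAPP islets at 0.33 ± 0.13 and had 0.16 ± 0.12 in hIAPP islets.

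The 3 constitutive catalytic subunits did not move alike. Psmb5, the chymotrypsin-like subunit, had 73.8, 82.3 and 89.6 CPM as its lowest, median and highest values in hIAPP islets at 16.7 mM, against 34, 43.5 and 57.6 CPM in hIAPP islets at 11.1 mM. These 2 groups were fully apart. The log2 fold change was 0.87 ± 0.12 (adjusted p = 1.35e-06), and in mIAPP islets, where the groups overlapped, it was 0.64 ± 0.12 (adjusted p = 0.000168). Psmb7, the trypsin-like subunit, rose by 0.48 ± 0.07 in hIAPP and 0.51 ± 0.07 in mIAPP islets, in 8 of 8 sets of each. Psmb6, the caspase-like subunit, averaged 83.3 ± 5.72 CPM in hIAPP islets at 16.7 mM and 85.9 ± 13.3 CPM in hIAPP islets at 11.1 mM, a log2 fold change of -0.03 ± 0.10 with adjusted p = 0.782. In mIAPP islets its log2 fold change was 0.02 ± 0.10 (adjusted p = 0.879). Of the structural beta subunits, Psmb1, Psmb2 and Psmb4 rose in both genotypes by 0.23 to 0.32. Psmb3 fell in hIAPP islets (-0.36 ± 0.12, adjusted p = 0.00999) and was at -0.06 ± 0.12 in mIAPP islets.

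**Figure D2:**
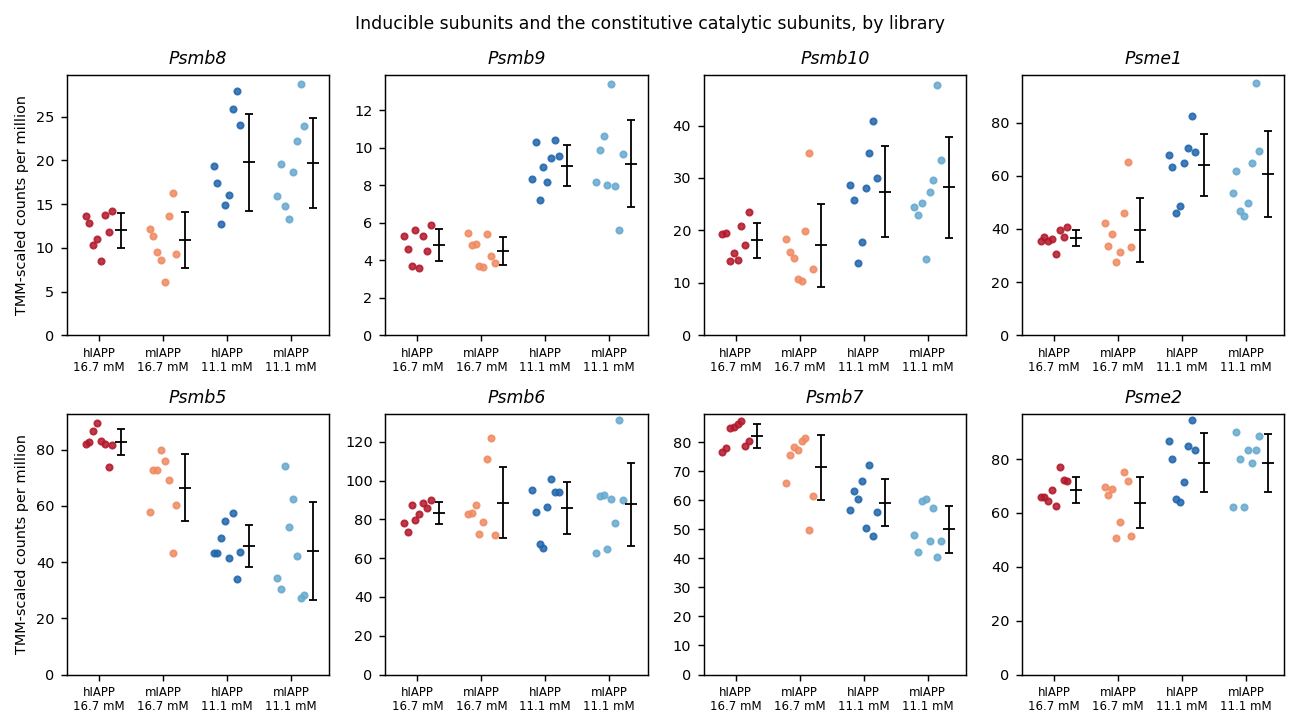
Level in each library (points, TMM-scaled CPM; bars are mean and SD of 8) of the 3 inducible and 3 constitutive catalytic genes and the 11S pair, by group. Psmb8, Psmb9, Psmb10 and Psme1 have lower means at 16.7 mM than at 11.1 mM in both genotypes, Psmb5 and Psmb7 have higher ones, and the points of Psmb6 overlap throughout.

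Of the 19S base, 5 of 6 ATPase genes rose in hIAPP and 4 of 6 in mIAPP islets, by log2 fold changes of 0.21 to 0.36 in hIAPP and 0.25 to 0.47 in mIAPP islets. Psmc5 was at -0.05 ± 0.07 in hIAPP and -0.03 ± 0.07 in mIAPP islets and passed in neither. The largest base response was that of Psmd2, a scaffold that docks shuttle proteins. Its lowest, median and highest levels were 212, 245 and 258 CPM in hIAPP islets at 16.7 mM, against 97.7, 121 and 156 CPM in hIAPP islets at 11.1 mM. No library of one group reached into the other. The log2 fold change was 0.96 ± 0.11 (adjusted p = 2.83e-08), and it was 0.62 ± 0.11 in mIAPP islets (adjusted p = 3.58e-05). Psmd1, the other large scaffold, rose by 0.65 ± 0.09 in hIAPP and 0.40 ± 0.09 in mIAPP islets. Psmd4, a ubiquitin receptor, went the other way in hIAPP islets (-0.31 ± 0.09, adjusted p = 0.00375) and had -0.13 ± 0.09 in mIAPP islets (adjusted p = 0.216).

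Of the 8 lid genes, 6 rose in hIAPP and 5 in mIAPP islets. Psmd12, Psmd13 and Psmd14 led, with log2 fold changes of 0.73 ± 0.08, 0.74 ± 0.10 and 0.62 ± 0.10 in hIAPP islets and of 0.60 ± 0.08, 0.47 ± 0.10 and 0.55 ± 0.10 in mIAPP islets. Psmd14 encodes the lid's deubiquitinase. It ranged over 43.3 to 52.2 CPM in hIAPP islets at 16.7 mM and 26 to 36.7 CPM in hIAPP islets at 11.1 mM. In mIAPP islets it ranged over 33.3 to 48.1 CPM at 16.7 mM and 17.9 to 32.9 CPM at 11.1 mM, so the glucose groups were apart in both genotypes. Psmd3 and Psmd7 passed in neither genotype. The 3 assembly chaperones of the base behaved otherwise: none rose, and Psmd9 fell by 0.30 ± 0.08 in hIAPP and 0.27 ± 0.08 in mIAPP islets, in 7 of 8 sets of each (adjusted p = 0.00204 and 0.00758).

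Both caps outside the interferon-inducible 11S pair rose. Psme4, known as PA200 and linked to histone degradation, had 134, 147 and 167 CPM as its lowest, median and highest levels in hIAPP islets at 16.7 mM, against 57, 72.1 and 101 CPM in hIAPP islets at 11.1 mM, without overlap (log2 fold change 0.99 ± 0.11, adjusted p = 3.56e-08). In mIAPP islets it rose by 0.85 ± 0.11 (adjusted p = 8.65e-07). Psme3, the nuclear PA28 gamma, rose by 0.78 ± 0.10 in hIAPP and 0.44 ± 0.10 in mIAPP islets, in 8 of 8 sets of each. In hIAPP islets 16 of 42 genes were higher without any overlap of the 8 and 8 libraries, against 14.3% of all genes. Only Psmb9 and Psme1 were lower without overlap there, against 8.38% of all. In mIAPP islets Psma2 and Psmd14 were higher and Psmb9 was lower without overlap, against 2.64% and 1.41% of all genes.

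The interferon-inducible genes fell. Psmb9 had 3.56, 4.93 and 5.87 CPM as its lowest, median and highest values in hIAPP islets at 16.7 mM, against 7.2, 9.2 and 10.4 CPM in hIAPP islets at 11.1 mM. The groups did not overlap. In mIAPP islets it had 3.66, 4.51 and 5.46 CPM at 16.7 mM, against 5.63, 8.89 and 13.4 CPM at 11.1 mM, again without overlap. The log2 fold change was -0.91 ± 0.15 in hIAPP islets (adjusted p = 7.96e-06). For mIAPP it was -1.03 ± 0.15 (adjusted p = 4.17e-06), with every one of 8 sets lower in both. Tap1, which shares the locus with Psmb9, had -0.16 ± 0.10 in hIAPP and -0.24 ± 0.10 in mIAPP islets and passed in neither (adjusted p = 0.166 and 0.0513).

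Psmb8 had 8.55, 12.3 and 14.2 CPM as its lowest, median and highest values in hIAPP islets at 16.7 mM, against 12.7, 18.4 and 28 CPM in hIAPP islets at 11.1 mM. In mIAPP islets the values were 6.06, 10.4 and 16.3 CPM at 16.7 mM and 13.3, 19.1 and 28.7 CPM at 11.1 mM. The groups overlapped at their edges in both genotypes, yet within each set the 16.7 mM library was the lower in 8 of 8 cases. The log2 fold change was -0.68 ± 0.12 in hIAPP islets (adjusted p = 1.75e-05), and for mIAPP it was -0.86 ± 0.12 (adjusted p = 1.75e-06). Psmb10 fell by 0.54 ± 0.15 in hIAPP and by 0.74 ± 0.15 in mIAPP islets (adjusted p = 0.003 and 0.000334). Its values spread widely, over 14.1 to 23.5 CPM in hIAPP islets at 16.7 mM and 13.8 to 40.8 CPM in hIAPP islets at 11.1 mM.

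Psme1 fell by 0.78 ± 0.10 in hIAPP islets, where it ranged over 30.5 to 40.8 CPM at 16.7 mM and 45.8 to 82.3 CPM at 11.1 mM (adjusted p = 3.7e-07). In mIAPP islets it ranged over 27.7 to 65 CPM at 16.7 mM and 45 to 94.7 CPM at 11.1 mM (log2 fold change -0.62 ± 0.10, adjusted p = 2.45e-05). The set 7 library, at 65 CPM, was the highest of the 16.7 mM group. Psme2, whose product pairs with that of Psme1 in the 11S ring, moved least. Its log2 fold change was -0.19 ± 0.08 in hIAPP islets, just short of the threshold (adjusted p = 0.0511), and for mIAPP it was -0.30 ± 0.09 (adjusted p = 0.00508). Psmb11 fell in hIAPP islets (-1.38 ± 0.36, adjusted p = 0.00163) and not by the test in mIAPP islets (-0.79 ± 0.35, adjusted p = 0.0624). Its level was low, with a median of 1.33 CPM in hIAPP islets at 11.1 mM and a highest value of 5.78 CPM, in set 7. In an edgeR fit with the mitochondrial share as a covariate, its log2 fold change in hIAPP islets was -0.16 (adjusted p = 0.878).

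Since each inducible catalytic subunit replaces a constitutive one, the share of the inducible gene in its pair was taken per kilobase of transcript within each library, which needs no scaling between libraries. Psmb8 made up 7.45 ± 1.3% of Psmb8 and Psmb5 together in hIAPP islets at 16.7 mM, and 19.5 ± 5.94% in hIAPP islets at 11.1 mM (SD, n = 8). In mIAPP islets its share was 8.72 ± 4.03% at 16.7 mM and 21.8 ± 9.55% at 11.1 mM. Psmb9 made up 3.3 ± 0.607% of Psmb9 and Psmb6 in hIAPP islets at 16.7 mM and 5.92 ± 0.861% in hIAPP islets at 11.1 mM. In mIAPP islets its share was 2.95 ± 0.504% at 16.7 mM and 6.04 ± 1.63% at 11.1 mM. Psmb10 made up 16.3 ± 2.83% of Psmb10 and Psmb7 in hIAPP islets at 16.7 mM and 28.9 ± 8.3% in hIAPP islets at 11.1 mM. In mIAPP islets its share was 17.8 ± 8.89% at 16.7 mM and 33.1 ± 9.62% at 11.1 mM. All 3 shares were lower at 16.7 mM within every one of 8 sets of each genotype.

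**Figure D3:**
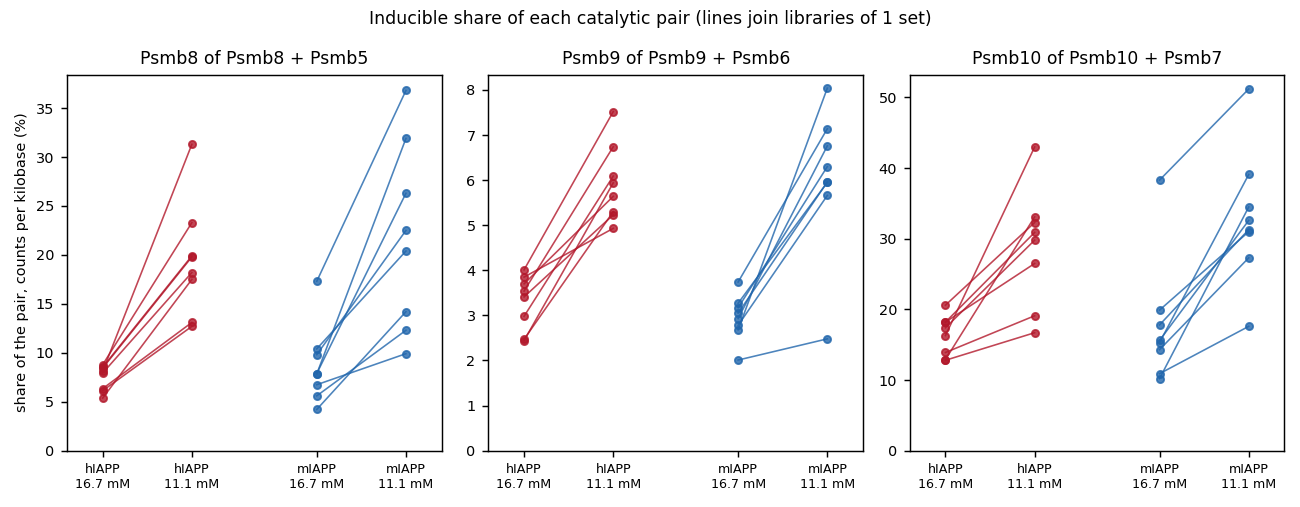
Share of the inducible gene in each catalytic pair (percent of the pair's counts per kilobase) in 32 libraries, with lines joining the 16.7 and 11.1 mM libraries of a set, for hIAPP (red) and mIAPP islets (blue). Every line rises toward 11.1 mM, and the mIAPP set 7 library at 16.7 mM stands apart for Psmb8 (17.3%) and Psmb10 (38.3%).

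On the log2 scale the ratio of Psmb8 to Psmb5 counts differed between 16.7 and 11.1 mM by -1.55 ± 0.41 in hIAPP and -1.54 ± 0.59 in mIAPP islets (SD over 8 sets). For Psmb9 to Psmb6 the difference was -0.89 ± 0.32 in hIAPP and -1.03 ± 0.38 in mIAPP islets. For Psmb10 to Psmb7 it was -1.04 ± 0.54 in hIAPP and -1.26 ± 0.52 in mIAPP islets. Each of these 6 differences had p = 0.00781 in a two-sided exact sign-flip permutation test, the smallest that 8 sets can give, and an adjusted p of 0.0195 over 15 tests. The 3 interaction tests, which compare the glucose differences of hIAPP and mIAPP islets, had differences of -0.02, 0.14 and 0.23 for the Psmb8, Psmb9 and Psmb10 ratios, with adjusted p = 0.93, 0.597 and 0.586 in the exact test.

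The opposite movement was present set by set. Within a set, the median log2 ratio of 16.7 to 11.1 mM over the 37 other genes lay between 0.17 and 0.40 in hIAPP and between 0.10 and 0.43 in mIAPP islets. Over the 5 inducible genes it lay between -1.21 and -0.31 in hIAPP and between -1.41 and -0.39 in mIAPP islets. In sets 3 and 4, where the mitochondrial share was under 10% in all 4 groups, the median over the other genes was 0.40 and 0.35 in hIAPP and 0.26 and 0.25 in mIAPP islets. There the median over the inducible genes was -0.31 and -0.43 in hIAPP and -0.64 and -0.63 in mIAPP islets.

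**Figure D4:**
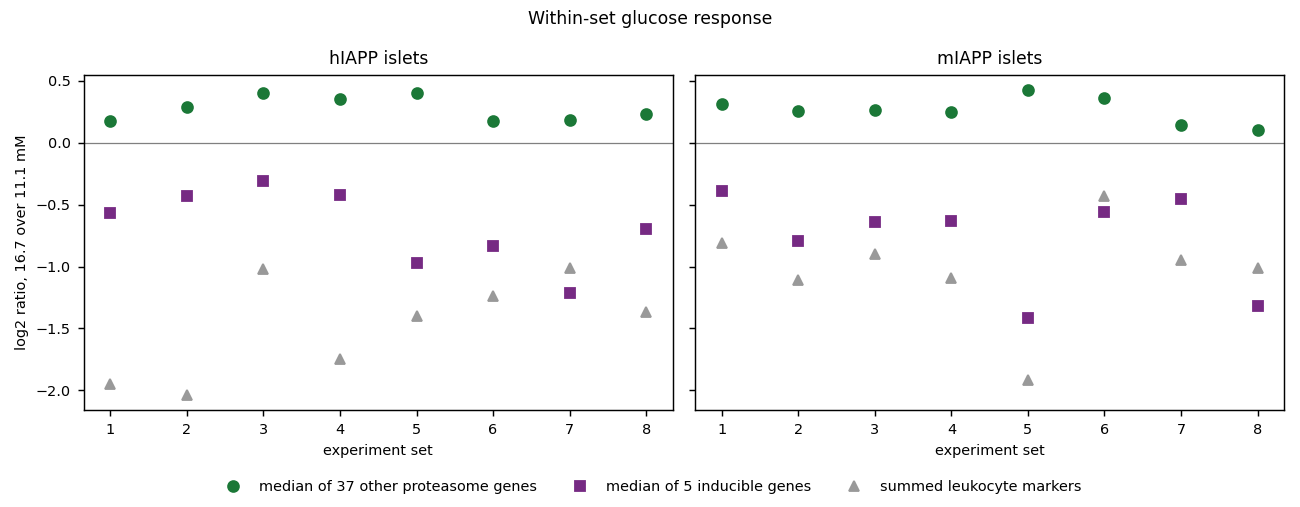
Log2 ratio of 16.7 to 11.1 mM within each of 8 sets, in hIAPP (left) and mIAPP islets (right): median of the 37 other proteasome genes (circles), median of the 5 inducible genes (squares) and summed leukocyte markers (triangles). Circles lie above 0 and squares and triangles below it in every set of both genotypes.

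Markers of leukocytes, which express the inducible subunits strongly, moved with the same comparison. The summed leukocyte markers were lower at 16.7 mM in 8 of 8 sets of each genotype, with a median log2 ratio of -1.38 in hIAPP and -0.98 in mIAPP islets, and 12 of 14 markers fell in hIAPP and 13 of 14 in mIAPP islets. Endothelial markers fell too, 10 of 10 in hIAPP and 6 of 10 in mIAPP islets. Their part in the fall of the inducible genes, and in the rise of the others, was not tested beyond the covariate fits that follow. The leukocyte sums of the 2 glucose levels did not overlap in hIAPP islets (63.1 to 173 against 212 to 418 CPM). In mIAPP islets they overlapped little (86.5 to 213 against 184 to 373 CPM), so the leukocyte fit cannot tell leukocytes from glucose. With the summed leukocyte markers as a covariate, a fit added after the data had been seen, 0 of 5 inducible genes were called in hIAPP and 1, Psmb8 (-0.73, adjusted p = 0.0376), in mIAPP islets. In that fit 3 and 8 of the 37 others were higher in hIAPP and mIAPP islets, among 902 and 878 called genes of 16428. The median log2 fold change of the others in it was 0.22 in hIAPP and 0.25 in mIAPP islets, and that of the inducible genes was -0.33 in hIAPP and -0.53 in mIAPP islets. Psma5 (0.99 in hIAPP and 0.86 in mIAPP islets), Psmb5 (1.11 and 0.81) and Psmd13 (0.94 and 0.62) were called in it in both genotypes. With the mitochondrial share as a covariate, Psmb9 (-1.07 and -1.09 in hIAPP and mIAPP islets) and Psmb8 (-0.54 and -0.81) were called in both genotypes, and 14 and 27 of the other genes were higher. Psma5 was called in both genotypes in this fit too (0.67 and 0.73). In hIAPP islets Psmb5 (0.27, edgeR adjusted p = 0.201) and Psmd13 (0.26, adjusted p = 0.133) lost their calls. In mIAPP islets both kept them (0.41 and 0.28). That fit called 38.1% and 76.2% of the 42 genes in hIAPP and mIAPP islets, against 19.4% and 35.3% of all genes. Among libraries with a mitochondrial share under 10%, of which only 2 were hIAPP at 11.1 mM, 22 of the others were higher in each genotype, and 2 and 4 of the inducible genes were lower in hIAPP and mIAPP islets. There 57.1% and 61.9% of the 42 genes were called in hIAPP and mIAPP islets, against 22.6% and 30.2% of all genes.

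Between genotypes at 16.7 mM glucose, the share of proteasome genes called was near that of all genes, 16.7% against 20.5%. In hIAPP against mIAPP islets 7 of 42 genes were higher and 0 were lower by edgeR's test, against 9.27% and 11.2% of all genes (20.5% in either direction), DESeq2 called 7 and 0, and limma voom called 7 and 1, the lower one being Psmb11. In edgeR, 10 of the 42 had an unadjusted p under 0.05 in either direction, against 5942 of all 16428 genes. The 7 genes were Psma5 (0.36 ± 0.09), Psmb5 (0.34 ± 0.12), Psmd13 (0.33 ± 0.10), Psme3 (0.30 ± 0.10), Psmd2 (0.30 ± 0.10), Psmd12 (0.26 ± 0.08) and Psmb7 (0.22 ± 0.07), with adjusted p from 0.00906 to 0.0467. For Psma5 the levels were 64.7, 73.4 and 77.2 CPM (lowest, median and highest) in hIAPP islets, against 31, 60.9 and 68.5 CPM in mIAPP islets. Groups overlapped for all 42 genes, while 2.39% of all genes were higher and 0.584% lower without overlap. Of the 7, 6 were higher in hIAPP islets in 8 of 8 sets and Psmd2 in 7. The fit that picked them had the sets as a block, so this agreement adds no separate evidence. Psma2 and Psmc2 were higher in 8 of 8 sets as well and were not called. All 7 were among the 22 of 42 genes that rose with glucose in both genotypes, in comparisons that share libraries with this one. None of the 5 inducible genes passed: Psmb8 was at 0.18 ± 0.12, Psmb10 at 0.16 ± 0.15, Psme2 at 0.11 ± 0.08, Psmb9 at 0.10 ± 0.15 and Psme1 at -0.07 ± 0.10, with adjusted p from 0.256 to 0.66. The 3 pair ratios did not pass either (adjusted p from 0.381 to 0.93 in the exact test).

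Leaving out a single set changed these 7 calls. Psma5 alone was called without set 7, without set 1 or without set 6, and without only the mIAPP library of set 7 at 16.7 mM, which had a mitochondrial share of 37%. Calls over all genes fell as well, from 20.5% to 11.8%, 9.89% and 11.3% without sets 7, 1 and 6, and to 12.8% without that library. All 7 were called without set 4 or without set 5. Without set 6 the log2 fold changes hardly moved, at 0.36 for Psmb5, 0.33 for Psmd13, 0.26 for Psmd12 and 0.23 for Psmb7, and without set 7 they were 0.29, 0.22, 0.22 and 0.16 for the same genes. With the mitochondrial share as a covariate, in the fit without the replicate block, and among libraries under 10% mitochondrial counts, 0 of 42 were called. Of these 3, the covariate fit had 2 of the 42 genes at an unadjusted p under 0.05, the fit without the block 4 and the restricted fit 7. How many of all genes reached that unadjusted p was not counted in these fits. Over all genes the 3 fits called 4.58%, 7.92% and 6.61% in that order. The part of the mitochondrial share in the 7 calls was not tested further. Endothelial markers were lower in hIAPP islets at 16.7 mM in 6 of 10 cases, and of the leukocyte markers 4 of 14 were lower and 1, Cd68, was higher.

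**Figure D5:**
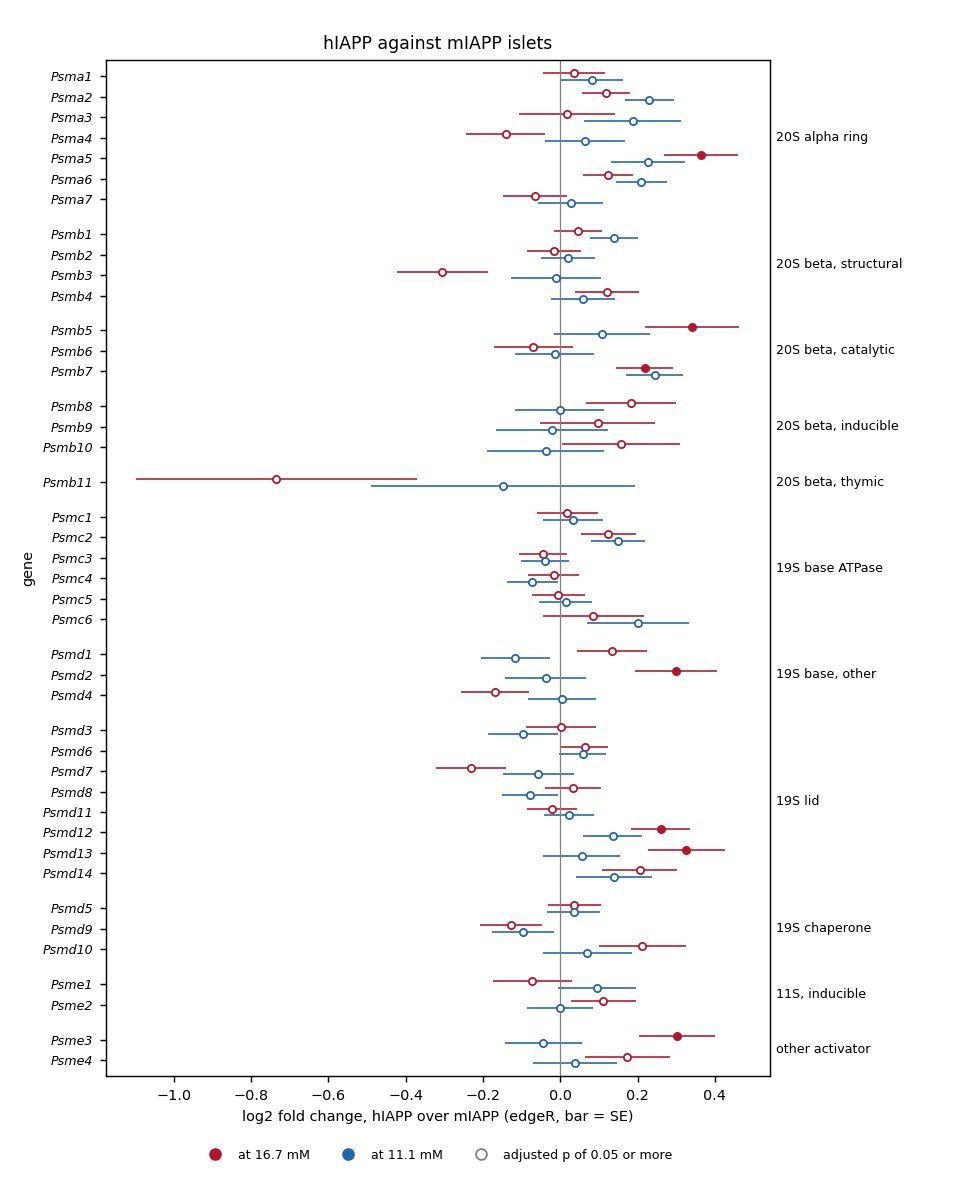
Log2 fold change of the 42 proteasome genes in hIAPP over mIAPP islets at 16.7 mM (red) and 11.1 mM glucose (blue), grouped by role; bars are standard errors of the edgeR fit and open points did not pass an adjusted p of 0.05. All but 7 points at 16.7 mM and all points at 11.1 mM are open, and the 7 filled ones lie right of 0.

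At 11.1 mM glucose 0 of 42 genes differed between hIAPP and mIAPP islets by edgeR, DESeq2 or limma voom, against 0.128% of all genes (0.11% higher, 0.0183% lower) in edgeR. An unadjusted p under 0.05 in edgeR was found for 6 of the 42, against 1121 of all 16428 genes. Of the 42, those with the smallest p were Psma2 (0.23 ± 0.06, adjusted p = 0.381), Psmb7 (0.24 ± 0.07, adjusted p = 0.616) and Psma6 (0.21 ± 0.07, adjusted p = 0.634), each higher in hIAPP islets in 8 of 8 sets. All 7 alpha ring genes had positive values, between 0.03 and 0.23. Every other role held a negative value, the non-ATPase base genes had a median of -0.04, and the median over all 42 was 0.03. The inducible genes lay between -0.04 and 0.09. Groups overlapped for all 42 genes, against 0.0791% of all genes higher and 0.0122% lower without overlap. In the test of the interaction 0 of 42 genes passed in edgeR, DESeq2 or limma voom, against 3.12% of all genes in edgeR (2.17% positive, 0.95% negative). Against 3055 of all 16428 genes with an unadjusted p under 0.05 in edgeR, 2 of the 42 had one. These 2 were Psme3, with a difference of the glucose effects of 0.35 ± 0.14 (adjusted p = 0.18), and Psmd2, with 0.34 ± 0.15 (adjusted p = 0.222). The genotype effects at both glucose levels and the interaction share libraries, so they are not independent of each other or of the glucose comparisons.

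Genes that supply ubiquitin and deliver ubiquitinated proteins mostly rose. Of 20 tested genes for assembly and regulation, 8 were higher and 6 lower at 16.7 mM in hIAPP islets, and 9 were higher and 3 lower in mIAPP islets. These shares, 40% and 30% in hIAPP islets against 32.2% and 33.3% of all genes, and 45% and 15% in mIAPP islets against 24.9% and 22.7%, include values near the background. Ngly1, which removes sugar chains from NFE2L1, the activator of proteasome genes, averaged 43.1 ± 4.86 CPM in hIAPP islets at 16.7 mM and 19.8 ± 4.18 CPM in hIAPP islets at 11.1 mM (log2 fold change 1.14 ± 0.10, adjusted p = 6.52e-10). In mIAPP islets it rose by 0.97 ± 0.10 (adjusted p = 3.06e-08). Nfe2l1 itself, named after its values were seen, rose by 0.31 ± 0.09 in hIAPP islets (adjusted p = 0.00287) and had 0.13 ± 0.09 in mIAPP islets (adjusted p = 0.227). Psmg4, a chaperone of core assembly, fell by 0.80 ± 0.16 in hIAPP and by 0.59 ± 0.16 in mIAPP islets. Of 15 genes for ubiquitin supply and shuttling, 12 were higher in each genotype and 2 and 3 were lower in hIAPP and mIAPP islets, so that 80% rose in each. Vcp, the ATPase that extracts ubiquitinated proteins, averaged 539 ± 20.9 CPM in hIAPP islets at 16.7 mM and 316 ± 19.8 CPM in hIAPP islets at 11.1 mM (log2 fold change 0.77 ± 0.07), and rose by 0.72 ± 0.07 in mIAPP islets.

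Of 9 class I antigen presentation genes, 4 were higher and 0 lower at 16.7 mM in hIAPP islets (44.4% and 0%, against 32.2% and 33.3% of all genes). In mIAPP islets 3 were higher and 2 lower (33.3% and 22.2%, against 24.9% and 22.7%). The median log2 fold change over the 9 was 0.19 in hIAPP and -0.17 in mIAPP islets. H2-D1, a class I heavy chain, rose by 0.85 ± 0.13 in hIAPP islets (adjusted p = 2.7e-06), and Erap1, which trims peptides, by 0.90 ± 0.17. Of 19 tested interferon response genes, 6 were higher and 7 lower in hIAPP islets (31.6% and 36.8%, against 32.2% and 33.3% of all genes), and 4 were higher and 7 lower in mIAPP islets (21.1% and 36.8%, against 24.9% and 22.7%). Irf7 fell by 1.13 ± 0.16 in hIAPP and by 1.09 ± 0.16 in mIAPP islets. At 16.7 mM, 6 of 9 class I genes and 6 of 19 interferon response genes were higher in hIAPP than in mIAPP islets and 0 of either were lower (66.7% and 31.6% higher, against 9.27% of all genes higher and 11.2% lower), a comparison in which no inducible proteasome gene passed. Among the 12 were H2-D1 (0.54 ± 0.13, adjusted p = 0.00395) and B2m (0.30 ± 0.08, adjusted p = 0.0103). At 11.1 mM 0 of 9 and 0 of 19 passed in edgeR, with 3 and 0 at an unadjusted p under 0.05, against 1121 of all 16428 genes.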

How the data were processed

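Poly(A) RNA of 32 islet libraries was sequenced. The authors deposited 1 table of expected counts, kallisto's estimates per gene, unscaled and already whole, made with bcl2fastq 1.8.4 and kallisto 0.45.0 on GRCm38, per the submitters' processing notes. Library totals were 16.1 to 43.7 M counts. The proteasome genes, lists and tests were chosen with earlier results of these data known. Under R 4.3.3, counts were scaled by TMM in edgeR 4.0.16, filterByExpr by group left 16428 genes, and 1 robust quasi-likelihood fit held the 4 groups and the set (21 residual degrees of freedom), with Benjamini-Hochberg adjustment over all genes tested and a threshold of 0.05. The ratio tests used exact sign flips over 8 sets with a pseudocount of 0.5 counts. P-values measure the spread between sets. Sets pair the libraries because the labels say that 8 sets each held the 4 groups; deviations from the group means correlated between same-set libraries, the mean r per pair of groups lying at 0.127 to 0.292. Alternatives used DESeq2 1.42.0, limma 3.58.1, other scalings, filters and covariates, and left out sets. Lengths are those of GENCODE M21 principal transcripts. Any proteasome gene could be named, and from each list up to 4 tested genes with the smallest p in a comparison; others are said to be named after their values were seen. The fit was tested on simulated counts.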

Additional observations from a re-analysis of the deposited data

Results flagged for a closer look

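In 14 of 92 groups of 8 values, 1 library stood farther from the rest than Dixon's 95% critical value for 8 samples allows, and chance alone marks about 1 in 20 groups. Each of the 14 was the library of set 7, and 8 of them were the mIAPP library at 16.7 mM. In that library Psma5 (31 CPM) and Psme3 (31.6 CPM) were the lowest of their group, and Psmb10 (34.8 CPM), Psmb3 (113 CPM), Psmd4 (115 CPM) and Psmb11 (5.14 CPM) were the highest. The shares of Psmb8 in Psmb8 and Psmb5 (17.3%) and of Psmb10 in Psmb10 and Psmb7 (38.3%) were the highest there too. In the hIAPP library at 11.1 mM, Psmb11 was the highest (5.78 CPM) and Psmd13 the lowest (26.9 CPM). In the mIAPP library at 11.1 mM, Psmb11 (7.64 CPM), Psmb3 (121 CPM) and Psmb6 (131 CPM) were the highest, and the share of Psmb9 in Psmb9 and Psmb6 was the lowest (2.48%). Set 7 had mitochondrial shares, with 16.7 mM glucose, of 6.51% for hIAPP and 37% for mIAPP, and with 11.1 mM of 27.2% for hIAPP and 34.7% for mIAPP. Its part in these values was not tested.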

How the results depend on the processing

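Only some of the 42 proteasome genes were followed 1 by 1 through all settings, strong movers such as Psma5, Psme4 and Psmd2 among them. Of 41 calls in these followed genes, DESeq2, limma voom, RLE size factors and leaving out mitochondrial genes each kept 41. Strong effects are the least likely to lose a call, so this result does not stand for the whole set. Counts of higher and lower genes at 16.7 over 11.1 mM stayed within 31 to 33 calls in hIAPP and 27 to 33 in mIAPP islets when any set was left out. The 6 glucose differences of the pair ratios passed in the 10 settings tried for them, which held no covariate fit. Since all 8 sets went the same way, leaving out 1 could only give p = 0.0156 in the exact test, so these settings could not have failed. Upper quartile scaling shifted the median of all genes to -0.16 in hIAPP and -0.13 in mIAPP islets. Under it 13 of the other genes were higher and 5 lower in hIAPP islets, 18 and 4 in mIAPP islets, and 5 inducible genes were lower in each. Calls then covered 54.8% of the 42 genes in hIAPP islets, against 65.6% of all genes. In mIAPP islets they covered 64.3%, against 49.1%. A minimum mean of 5 CPM left 40 genes. Of these, 62.5% were called in hIAPP islets, against 70.1% of all genes, and 70% in mIAPP islets, against 58.3%. In the main fit the shares were 76.2% against 65.5% in hIAPP and 69% against 47.5% in mIAPP islets. In hIAPP islets the excess over all genes thus depended on scaling and filter.

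For hIAPP against mIAPP islets at 16.7 mM the 7 calls became 4 with upper quartile scaling, 3 with no low count filter, 2 with the leukocyte covariate, and 0 with the mitochondrial covariate or among libraries under 10% mitochondrial counts. Over all genes these fits called 21%, 8.81%, 9.69%, 4.58% and 6.61% in that order, against 20.5% in the main fit. Leaving out sets gave 1 to 8 calls, and 1 where only set 7's mIAPP library under 16.7 mM was dropped. Without the replicate block, which follows the labels' pairing into sets, 0 of 42 were called, against 7.92% of all genes. In that fit 33 of the 41 calls in the followed genes were kept. With the mitochondrial covariate Psmd2 turned to -0.0039.

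For glucose in hIAPP islets the 32 calls became 16 with the mitochondrial covariate (14 other genes higher, 2 inducible lower) and 3 with the leukocyte covariate (3 other genes higher, 0 inducible lower), and 2 inducible genes were lower among libraries under 10% mitochondrial counts. Over all genes in hIAPP islets, the mitochondrial covariate left 19.4% called and those libraries 22.6%, against 65.5% in the main fit. In mIAPP islets the leukocyte covariate left 9 of 29 calls (8 other genes higher, 1 inducible lower). Psmb3 turned to 0.0357 and Psmd4 to 0.0614 in hIAPP islets with the mitochondrial covariate, and to 0.02 and 0.0178 among libraries under 10%. The ratio of Psmb10 to Psmb7 in hIAPP against mIAPP islets at 11.1 mM lay between -0.3464 and -0.1986 when a set was left out, and without set 4 its adjusted p was 0.0335 in the exact test. The leukocyte covariate was chosen after seeing the data, and its values nearly separated the glucose groups. The causes were not tested. In mIAPP islets the mitochondrial covariate gave 32 calls against 29 (27 other genes higher, 5 inducible lower), with 35.3% of all genes called against 47.5%. Across all genes the leukocyte covariate left 5.49% called in hIAPP islets, against 65.5%. Depth limits Psmb11 most, at 0.259 CPM in its lowest mIAPP library under 11.1 mM.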
